A study of Danio rerio with 2 samples.

Results

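The proteasome subunit genes and the polyubiquitin gene annotated as *UBB* were followed in GFP-sorted islet cells of *gcgr-/-* and control zebrafish larvae. The genes were taken by name, as every entry beginning with *psma*, *psmb*, *psmc*, *psmd*, *psme*, *psmf* or *psmg*, plus *UBB*, with at least 10 counts over the cells that passed quality limits. Of 59 names that matched, 52 reached the limit, out of 24900 genes in the tables. The 7 names left out were *psma6l*, with 2 counts, and *psmb8a*, *psmb9a*, *psmb11a*, *psmb11b*, *psmb13a* and *PSMD4 (1 of many)*, each with 0 counts. The subunits follow from their names and this floor, whereas *UBB* was added singly and was a gene the study had picked on these samples.

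The study asked how the loss of glucagon receptors altered the transcriptome of alpha cells. The *gcgr-/-* larvae had both glucagon receptor genes, *gcgra* and *gcgrb*, disrupted and carried *Tg(gcga:GFP)*, a transgene in which the promoter of the glucagon gene *gcga* drives GFP. The control larvae, given as wild type in the labels, carried the same transgene, and both were 7 days post fertilization. Islets were picked by hand, dissociated, and sorted for GFP into 96-well plates, and the number of larvae is not given in the sources used here. Each genotype is a single sample, so no difference between genotypes could be tested against replicates. The ratios below compare these 2 samples only, and their 95% intervals cover counting error alone.

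The 26S proteasome is the main protease for damaged and regulatory proteins in the cytosol and nucleus. Its 20S core is built of outer alpha rings and inner beta rings, and 3 of the beta subunits (*psmb5*, *psmb6* and *psmb7*) carry the proteolytic sites. The 19S cap recognises ubiquitin-tagged substrates, removes the ubiquitin, and unfolds and feeds the protein into the core through a ring of ATPases. Ubiquitin itself is translated from polyubiquitin genes, which heat and other proteotoxic stress induce in many organisms. Secretory islet cells make large amounts of prohormone and depend on this pathway to clear misfolded protein.

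Of 576 cells sequenced (384 *gcgr-/-* and 192 control), 288 *gcgr-/-* and 156 control cells passed the limits (500 or more genes seen, mitochondrial genes at no more than 10% of counts). Counts per passing cell ranged between 2231 and 286288 (median 25522.5) in *gcgr-/-* and between 3834 and 162322 (median 22042) in control. Cells were divided by the most abundant of 8 hormone genes (*ins*; the glucagon genes *gcga* and *gcgb*; the somatostatin genes *sst1.1*, *sst1.2* and *sst2*; *ghrl*; *gip*), which had to take at least 1% of the counts. Although every cell was labelled as an alpha cell, glucagon genes led in 106 *gcgr-/-* cells and only 3 control cells. The genotypes were therefore compared in the 4 kinds with at least 10 cells in each sample. These were *ins*-led cells (54 *gcgr-/-* and 41 control), *sst1.1*-led cells (52 and 36), *sst1.2*-led cells (29 and 29), and cells without a leading hormone (27 and 31). The first letter of a cell's name (C, D, E and F in *gcgr-/-*, A and B in control) was used as a subdivision of each sample. What the letters stand for is not given in the sources used here, no letter holds both genotypes, and letter and genotype cannot be told apart. The disrupted receptors could not check the genotype, since *gcgra* had 23 counts in *gcgr-/-* and 13 in control cells and *gcgrb* had 1 in each.

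Levels are given as CPM, the number of counts of a gene in each 1e+06 counts summed over a group of cells. The libraries read the 3' end of each transcript and were counted on coding sequence, so levels were not compared between genes. The genes were sparse: the median member had a count in 17.8% of passing cells, 16 members were seen in under 10% of cells, and in 4 members most counts came from 1 cell. *UBB* was the most abundant member with 16845 counts, and *psme2* the least with 25. The ubiquitin genes *UBB*, *ubb*, *ubc* and *rps27a* share nearly identical repeats and the pairs *psmd2* and *PSMD2 (1 of many)*, *psmd4a* and *psmd4b*, *psma6a* and *psma6b*, *psmc1a* and *psmc1b*, and *psmd11a* and *psmd11b* are close copies, so the split of reads within each of these sets is uncertain.

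*UBB*, one of the polyubiquitin genes, was lower in *gcgr-/-* cells of all 3 hormone-led kinds and within 2-fold in cells without a leading hormone. In *ins*-led cells it had 315, 289, 196 and 856 CPM in letters C, D, E and F of *gcgr-/-*, against 3078 and 1983 CPM in letters A and B of control. *UBB* in *sst1.1*-led cells stood at 360, 355, 211 and 123 CPM in *gcgr-/-*, against 2959 and 2752 CPM in control. Among *sst1.2*-led cells it had 228, 266, 200 and 267 CPM in *gcgr-/-*, against 2584 and 1941 CPM in control. Every *gcgr-/-* letter lay below both control letters in these 3 kinds, and letter F of the *ins*-led cells came closest. Over all cells of a kind, *UBB* was 6.13-fold lower in *gcgr-/-* in *ins*-led cells (ratio 0.163, interval 0.151 to 0.176), 11.4-fold lower in *sst1.1*-led cells (ratio 0.0873, 0.0784 to 0.0971) and 9.55-fold lower in *sst1.2*-led cells (ratio 0.105, 0.0922 to 0.118). Without letter F the ratio in *ins*-led cells was 0.103. Since the study picked the gene on these samples, its direction is not independent evidence.

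Cells without a leading hormone gave another picture for *UBB*. It had 1434, 1743, 1031 and 1133 CPM in the *gcgr-/-* letters, against 1434 and 1385 CPM in the control letters, and the letters overlapped. The ratio was 0.910 (0.834 to 0.993), and 1.05 without the cell with the most *UBB* counts in each sample. It was 0.695 as a mean over cells, and 0.760 with hormone, mitochondrial and ribosomal protein genes left out of the totals. These cells differed in make-up between the genotypes: 5 alpha cell markers summed to 11308 CPM in *gcgr-/-* and 274 CPM in control, and 9 epithelial markers to 2573 CPM in *gcgr-/-* (8 detected) and 23794 CPM in control (all 9 detected). The part of this difference in *UBB* and in the other genes of these cells was not tested. In hormone-led kinds that were too small to compare, *UBB* had 128 CPM in *gcgr-/-* and 642 CPM in control *sst2*-led cells (6 cells each), and 205 CPM in 12 *gcgr-/-* and 643 CPM in 3 control *ghrl*-led cells.

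**Figure D1:**
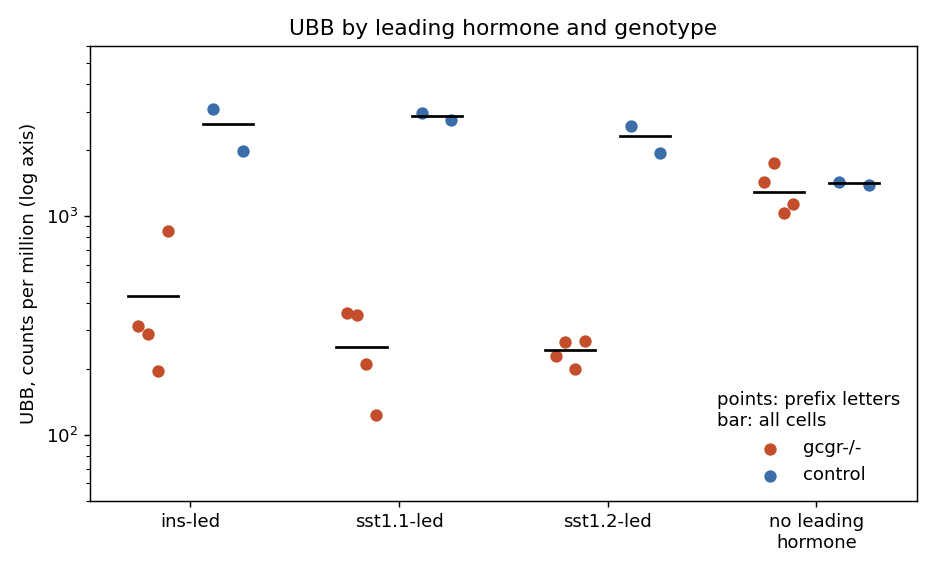
*UBB* level in CPM (log axis) by leading hormone, with one point for each prefix letter and a bar for all cells of the sample (*gcgr-/-* left, control right). In the 3 hormone-led kinds the *gcgr-/-* letters lie between 123 and 856 CPM and the control letters between 1941 and 3078 CPM, while the letters overlap in cells without a leading hormone.

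The share of cells with a *UBB* count followed the level. With all cells drawn down to 5000 counts (thinned; 3 *gcgr-/-* cells and 1 control cell were shallower and left out), *UBB* was seen in 50.9% of *gcgr-/-* and 85.4% of control *ins*-led cells. The shares were 31.4% in *gcgr-/-* and 94.4% in control *sst1.1*-led cells, and 31.0% in *gcgr-/-* and 71.4% in control *sst1.2*-led cells. Without thinning, 23 of 52 *gcgr-/-* and 36 of 36 control *sst1.1*-led cells had a count. All cell types use ubiquitin and the proteasome, so no kind served as a background for such shares. When the 3 hormone-led kinds were joined, the 16 *gcgr-/-* libraries had between 21.7 and 926 CPM of *UBB* (median 260), and the 8 control libraries between 2128 and 3298 CPM (median 2480), with no overlap.

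The heat-shock gene *hsp70.1*, a stress-induced chaperone that the study also picked on these samples, was likewise lower in the *gcgr-/-* libraries. It had between 114 and 5611 CPM (median 940) in the *gcgr-/-* libraries and between 11606 and 20943 CPM (median 18374) in the control libraries. By kind, *hsp70.1* had 2389 CPM in *gcgr-/-* and 16197 CPM in control *ins*-led cells, 1165 and 18341 CPM in *sst1.1*-led cells, 720 and 22188 CPM in *sst1.2*-led cells, and 7017 and 14119 CPM in cells without a leading hormone. *hsp70.1* belongs to a list of heat shock genes that took no common direction. In the 3 hormone-led kinds *hsp70.2*, *hsp70.3* and *dnajb1b* were also lower in *gcgr-/-*, whereas *hspa8* was higher. In *ins*-led cells these 4 genes had 8345, 3920, 486 and 1067 CPM in *gcgr-/-*. The control values were 30596, 10595, 842 and 721 CPM. Of 17 measured genes of the list, 5 were past 2-fold higher and 6 lower in that kind, beside 33.3% and 30.3% of all genes. Of the compared kinds, cells without a leading hormone had the smallest difference in the summed level of *UBB* and of *hsp70.1*. For *hsp70.1*, 40.5% of their *gcgr-/-* counts came from 1 cell, and the *gcgr-/-* letters ran between 682 and 22600 CPM. Its median over single cells of this kind was 889 CPM in *gcgr-/-* and 15673 CPM in control. Within a genotype and kind, the Spearman correlation of the thinned counts of both genes ran between 0.09 and 0.57 over 9 sets of 27 to 105 cells, as a description of cells that share libraries. The part of *hsp70.1* and of the conditions that induce it in the *UBB* difference was not tested.

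**Figure D2:**
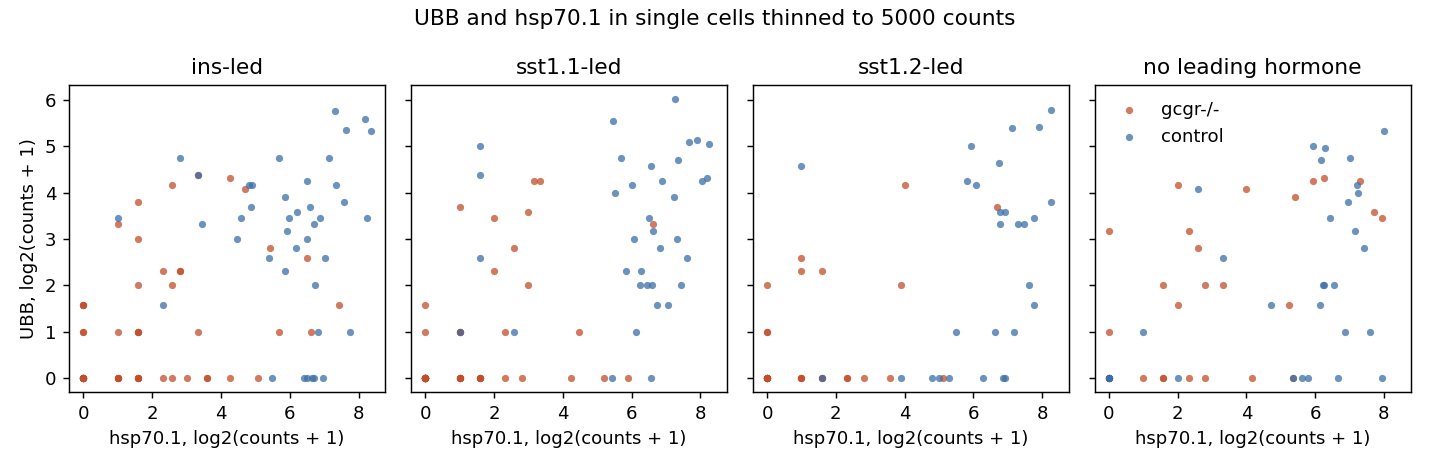
*UBB* against *hsp70.1* in single cells thinned to 5000 counts, both as log2(counts + 1), by leading hormone, with one point per cell (orange *gcgr-/-*, blue control). In the hormone-led kinds most control cells lie at high *hsp70.1* counts and most *gcgr-/-* cells at low counts of both genes, and cells with many *hsp70.1* counts and no *UBB* count occur in each kind.

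The other ubiquitin genes did not all follow *UBB*. A second polyubiquitin gene, *ubb*, had 951 CPM in *gcgr-/-* and 4066 CPM in control *ins*-led cells (ratio 0.234), and its ratios were 0.298 in *sst1.1*-led cells, 0.0808 in *sst1.2*-led cells and 0.758 in cells without a leading hormone. The polyubiquitin gene *ubc* stood at ratios of 0.695, 0.848, 1.11 and 2.28 in the same order of kinds. The gene *rps27a*, which encodes 1 ubiquitin joined to a ribosomal protein, had ratios between 0.668 and 1.099. In the hormone-led kinds differences past 2-fold were therefore measured for *UBB* and *ubb*, and not for *ubc* or *rps27a*. In cells without a leading hormone *ubc* alone of these was past 2-fold, at 1.49 without letter A and 3.53 without letter B.

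Glucagon-led cells could be compared with other kinds only within *gcgr-/-*, where each of the 4 letters holds glucagon-led cells and cells of every compared kind. *UBB* had 899, 876, 1133 and 532 CPM in letters C, D, E and F of glucagon-led cells, 875 CPM over all 106 cells. This was 3.48-fold the level of *sst1.1*-led cells and 3.59-fold that of *sst1.2*-led cells, higher in 4 of 4 letters in each case. Against *ins*-led cells the ratio was 2.04, with 3 of 4 letters above 1 and letter F at 0.621. Cells without a leading hormone had more *UBB* than glucagon-led cells (glucagon-led over these cells 0.680), in 3 of 4 letters. The 3 control glucagon-led cells had 866 CPM, a value that rests on too few cells to compare.

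The summed level of 50 proteasome genes (all members but *UBB* and *psmc3ip*) differed between genotypes by less than 1.5-fold in each of the 4 kinds, and not in the same direction. In *ins*-led cells it was 5465, 5909, 6460 and 4679 CPM in letters C, D, E and F of *gcgr-/-*, against 6703 and 7141 CPM in letters A and B of control (ratio 0.810, 0.789 to 0.833). Among *sst1.1*-led cells it was 9488, 9789, 8492 and 6325 CPM in *gcgr-/-*, against 5506 and 6664 CPM in control (ratio 1.42, 1.38 to 1.46). Every *gcgr-/-* letter was below both control letters in *ins*-led cells, whereas letter F of the *sst1.1*-led cells fell within the control range. The sum in *sst1.2*-led cells was 5639, 5013, 5797 and 5559 CPM in *gcgr-/-*, against 5063 and 4986 CPM in control (ratio 1.09, 1.04 to 1.14). In cells without a leading hormone it was 8023, 6196, 13584 and 7681 CPM in *gcgr-/-*, against 5589 and 6091 CPM in control (ratio 1.49, 1.44 to 1.55). The *sst1.2*-led letters overlapped, while in cells without a leading hormone every *gcgr-/-* letter was above both control letters, letter D only just. Letters D and E of *gcgr-/-* cells without a leading hormone held only 5 and 4 cells.

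Hormone transcripts take a share of every total, and that share differed. It was 21.6% in *gcgr-/-* and 17.5% in control *ins*-led cells, 14.5% and 24.3% in *sst1.1*-led cells, and 27.2% and 14.5% in *sst1.2*-led cells. With hormone genes left out of the totals the proteasome ratios were 0.852 in *ins*-led, 1.26 in *sst1.1*-led and 1.28 in *sst1.2*-led cells, so that part of the distance between the kinds depended on the total. Control *sst1.2*-led cells were also shallower, with a median of 14403 counts per cell against 28798 in *gcgr-/-*, and held more acinar transcript (661 CPM over 10 markers in control against 47.8 CPM in *gcgr-/-*), and the part of either in the values of this kind was not tested. Across the libraries of the 3 hormone-led kinds joined, the proteasome sum ran between 4716 and 9282 CPM in *gcgr-/-* (median 5793) and between 5399 and 7653 CPM in control (median 6300.0), and the ranges overlapped.

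**Figure D3:**
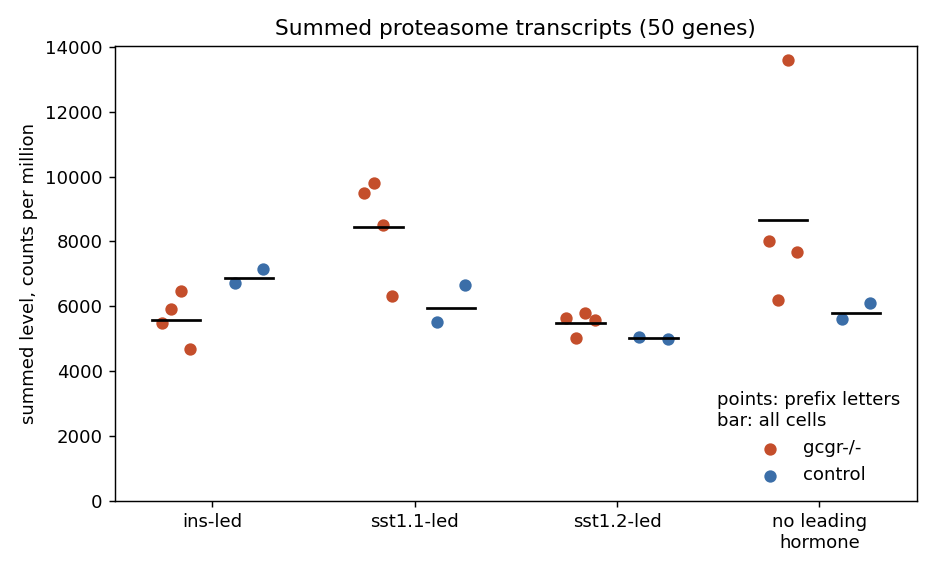
Summed level of 50 proteasome genes in CPM by leading hormone, with one point for each prefix letter and a bar for all cells of the sample (*gcgr-/-* left, control right). The sums lie between 4679 and 13584 CPM in the *gcgr-/-* letters and between 4986 and 7141 CPM in the control letters, with *gcgr-/-* below control in *ins*-led cells and above it in cells without a leading hormone. The highest point, letter E of cells without a leading hormone, holds 4 cells.

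Within glucagon-led *gcgr-/-* cells the proteasome sum was 5004, 6653, 4682 and 5006 CPM in letters C, D, E and F. Relative to *sst1.1*-led cells of the same genotype it was 0.629, below 1 in 4 of 4 letters (0.527 to 0.791). Relative to *ins*-led and *sst1.2*-led cells it was 0.952 and 0.970, with letters on both sides of 1. Against cells without a leading hormone it was 0.614, with 1 of 4 letters above 1 (0.345 to 1.07). In the mutant, *sst1.1*-led cells therefore had a higher proteasome level than glucagon-led cells in every letter. Cells without a leading hormone did so over all letters together, while *ins*-led and *sst1.2*-led cells lay close to glucagon-led cells.

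Gene by gene, the members were set beside all measured genes, without matching on count level. Members with at least 30 counts over both samples were counted as measured, and a ratio of 2 or more in either direction as past 2-fold. Among *ins*-led cells 6 of 41 measured members were past 2-fold higher in *gcgr-/-* and 7 past 2-fold lower, beside 33.3% higher and 30.3% lower among all measured genes. Among *sst1.1*-led cells 13 of 42 were higher and 6 lower, beside 40.7% and 24.7% of all genes. For *sst1.2*-led cells 12 of 37 were higher and 7 lower, beside 39.4% and 28.5%. In cells without a leading hormone 14 of 43 were higher and 9 lower, beside 40.5% and 29.7%. The members' shares were below those of all genes in each kind and direction, so these counts give no result about the members. The median log2 ratio of the members was -0.03 in *ins*-led, 0.21 in *sst1.1*-led, -0.04 in *sst1.2*-led cells and 0.39 in cells without a leading hormone, beside 0.04, 0.50, 0.32 and 0.36 for all genes.

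A second count asked for letters that did not overlap. In *ins*-led cells no measured member was higher in every *gcgr-/-* letter than in both control letters (6.61% of all genes were), and 5 were lower in every *gcgr-/-* letter (11.3% of all genes): *UBB*, *psmb6*, *psmd14*, *psmd1* and *psma4*. In *sst1.1*-led cells *psmd11a*, *psmd12*, *psmd8* and *psmb7* were higher in this way (8.23% of all genes) and *UBB* and *psma6a* lower (8.39%). For *sst1.2*-led cells *psmg3*, *psmd8* and *psmd6* were higher (6.55%) and *UBB*, *psmb1*, *psmb4*, *psmd14* and *psmg1* lower (8.6%). In cells without a leading hormone 0 were higher (4.22%) and *psmd7*, *psma6b*, *psmd8*, *psmg1* and *psme1* lower (14.2%). *UBB* was the only member that stood apart in the same direction in all 3 hormone-led kinds, and the share of all genes that did so was not counted. The genes that stood apart were otherwise mostly different in each kind, and their numbers were near or below the background, apart from the 5 of 37 lower in *sst1.2*-led cells.

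**Figure D4:**
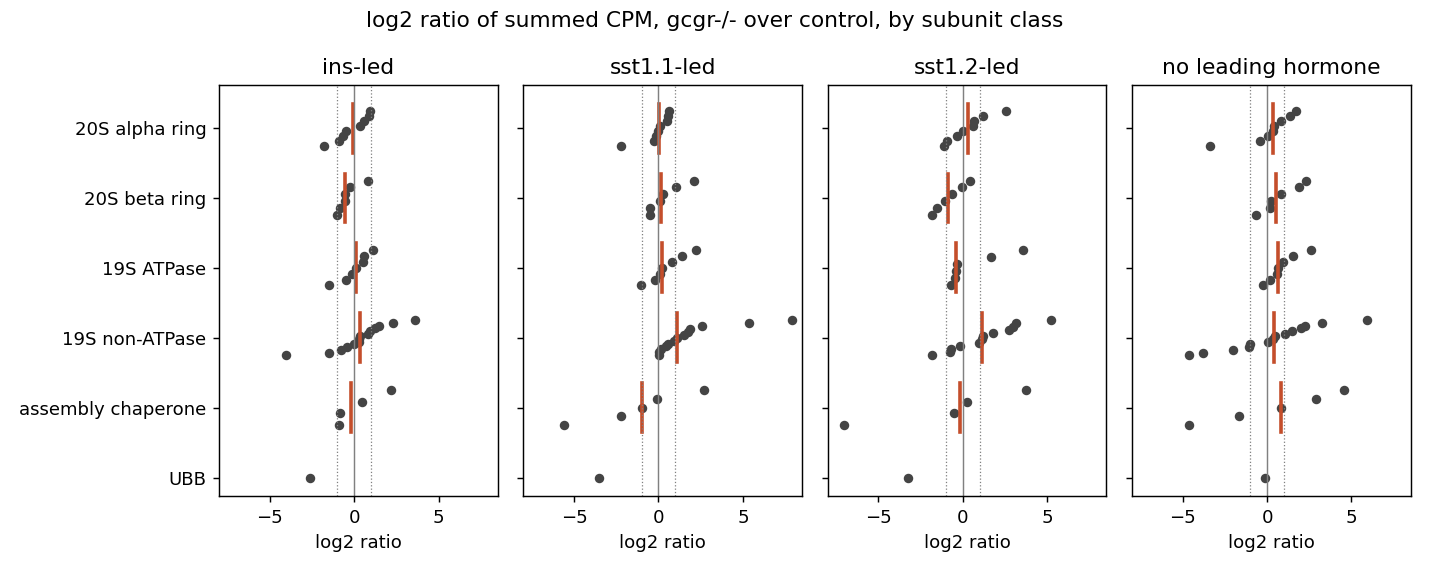
Log2 ratio of summed CPM, *gcgr-/-* over control, of each measured member (points) by subunit class and leading hormone, with the class median as an orange bar and dotted lines at 2-fold. Genes with 0 counts in 1 sample are drawn at the limit that 3 counts allow, and *UBB* lies at -2.62, -3.52 and -3.26 in the hormone-led kinds, outside the bulk of the subunits.

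The alpha ring genes, which form the gated ends of the core, summed to similar levels in *ins*-led cells (1076 CPM in *gcgr-/-* and 1161 CPM in control, ratio 0.927) and *sst1.1*-led cells (1755 and 1683 CPM, ratio 1.04). In *sst1.2*-led cells the sum was 1780 CPM in *gcgr-/-* and 1079 CPM in control, a ratio of 1.65 with no overlap of letters. This difference rested largely on *psma3* (585 CPM in *gcgr-/-* and 98.9 CPM in control), with 58.5% of its *gcgr-/-* counts in 1 cell. Of 8 measured alpha genes in this kind, 4 were above 1, where 2205 of 3955 genes were. Single alpha genes went both ways. *psma4* had 74.5, 47.8, 169 and 43.4 CPM in the *gcgr-/-* letters of *ins*-led cells, against 182 and 427 CPM in the control letters (ratio 0.289, 0.239 to 0.348, or 0.191 without letter A), and its ratios were 1.57 and 1.55 in *sst1.1*-led and *sst1.2*-led cells. *psma6b* had 49.1, 0, 8.11 and 114 CPM in *gcgr-/-* cells without a leading hormone, against 669 and 572 CPM in control (ratio 0.0950, or 0.0391 without letter F), and was seen in 7 of 27 *gcgr-/-* and 18 of 31 control cells. Its ratio in *sst1.2*-led cells was 2.33. Its copy *psma6a* had a ratio of 0.211 in *sst1.1*-led cells (58 counts in *gcgr-/-* and 234 in control, 67.9% of the control counts in 1 cell, and 0.461 without letter A).

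The beta ring genes summed to 3121 CPM in *gcgr-/-* and 1753 CPM in control *sst1.1*-led cells (ratio 1.78) and to 3262 and 1714 CPM in cells without a leading hormone (ratio 1.90), with letters apart in both. The order was turned in *sst1.2*-led cells, with 1643 CPM in *gcgr-/-* and 2377 CPM in control (ratio 0.691, letters apart), and in *ins*-led cells the ratio was 0.924. Of 6 measured beta genes, 5 had a ratio below 1 in *ins*-led cells and 5 in *sst1.2*-led cells, where 2584 of 5283 and 1750 of 3955 genes did. The exception was *psmb7* in both kinds. The difference of the ring sum in *sst1.1*-led cells rested largely on *psmb7* (1449 CPM in *gcgr-/-* and 339 CPM in control). There 4 of 6 measured beta genes were above 1 (median log2 ratio 0.16), where 2992 of 4971 genes were. *psmb1* contributed most to the low sum in *sst1.2*-led cells, with 185 CPM in *gcgr-/-* and 643 CPM in control (ratio 0.287, 0.242 to 0.340, or 0.171 without letter A and 0.523 without letter B), and *psmb2* stood at 861 CPM in *gcgr-/-* and 177 CPM in control cells without a leading hormone (ratio 4.88). The value of *psmb2* depended on single control letters, at 2.06 without letter A and 53.0 without letter B.

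Among the catalytic subunits, *psmb7*, which carries the trypsin-like site, was higher in *gcgr-/-* cells of all 4 kinds. In *sst1.1*-led cells it had 1743, 1617, 1332 and 1176 CPM in the *gcgr-/-* letters, against 242 and 502 CPM in the control letters (ratio 4.27, 3.85 to 4.75). It had, in *ins*-led cells, 1147, 1750, 838 and 618 CPM in *gcgr-/-*, against 473 and 814 CPM in control (ratio 1.74, 1.61 to 1.89). The *sst1.1*-led letters were apart, and in *ins*-led cells letter F of *gcgr-/-* was below letter B of control. The ratios were 1.37 (1.20 to 1.56) in *sst1.2*-led cells and 1.79 (1.60 to 1.999) in cells without a leading hormone, where single letters ran between 290.0 and 3181 CPM in *gcgr-/-* and the ratio was 1.03 without letter E. Thinned cells with a *psmb7* count made up 68.6% of *gcgr-/-* and 41.7% of control *sst1.1*-led cells, 60.4% and 39.0% of *ins*-led cells, 62.1% and 39.3% of *sst1.2*-led cells, and 51.9% and 35.5% of cells without a leading hormone. *psmb7* alone made up 17.2% of the proteasome sum in *gcgr-/-* and 5.71% in control *sst1.1*-led cells, and 19.2% and 8.91% in *ins*-led cells. Without it the ratio of the sum was 1.25 in *sst1.1*-led and 0.719 in *ins*-led cells.

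Of the other catalytic genes, *psmb6* did not keep the direction of *psmb7* in each kind, and *psmb5* could not be followed by kind. *psmb6*, with the caspase-like site, had 121, 47.8, 133 and 56.6 CPM in the *gcgr-/-* letters of *ins*-led cells, against 193 and 169 CPM in the control letters (ratio 0.490, 0.402 to 0.595). It had, in *sst1.1*-led cells, 226 CPM in *gcgr-/-* and 213 CPM in control (ratio 1.06, and 0.783 without letter C) and in cells without a leading hormone 248 and 210 CPM (ratio 1.18, and 0.938 without letter F). Its ratio was 0.481 in *sst1.2*-led cells, but 1.04 without control letter B. *psmb5*, with the chymotrypsin-like site, had 77 counts in 35 *gcgr-/-* cells and 10 counts in 9 control cells over all passing cells, too few for a ratio by kind. The 3 catalytic genes were thus measured at very different depths, and only *psmb7* and *psmb6* could be followed.

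The *psm*-named genes of the 19S cap had letters apart in all 3 hormone-led kinds, lower in *gcgr-/-* in 1 and higher in the others. These genes summed to 1719 CPM in *gcgr-/-* and 2704 CPM in control *ins*-led cells (ratio 0.636, 0.607 to 0.666), to 3233 and 1992 CPM in *sst1.1*-led cells (1.62, 1.55 to 1.70), and to 1817 and 1329 CPM in *sst1.2*-led cells (1.37, 1.25 to 1.49). The 20S core had ratios of 0.925, 1.42 and 0.990 in these kinds, with overlapping letters. In cells without a leading hormone the cap had a ratio of 1.45 and the core of 1.59. The name rule leaves the cap genes *adrm1* and *sem1* out of these sums. In *sst1.2*-led cells *sem1* had 65.8 CPM in *gcgr-/-* and 581 CPM in control, and *adrm1* had 288 and 65.9 CPM. The *sst1.2*-led value of the cap therefore depends on which genes are counted. *sem1* had 232 CPM in *gcgr-/-* and 462 CPM in control *ins*-led cells, and 440 and 366 CPM in *sst1.1*-led cells. Whether the ratios of the cap differ between kinds was not tested.

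The ATPases of the cap, which unfold the substrate, gave ratios of 0.630 in *ins*-led, 0.997 in *sst1.1*-led and 1.13 in *sst1.2*-led cells and 2.11 in cells without a leading hormone, with overlapping letters in each. The low value in *ins*-led cells rested largely on *psmc5*, with 391, 191, 171 and 155 CPM in the *gcgr-/-* letters and 838 and 374 CPM in the control letters (ratio 0.358), where 63.0% of the control counts came from 1 cell. *psmc3* was the ATPase gene with the highest ratio in *sst1.2*-led cells, at 195 counts in *gcgr-/-* and 6 in control (11.8, 5.32 to 32.5), or 5.65 without letter A and 42.5 without letter B. *psmc1b* stood at 201 CPM in *gcgr-/-* and 33.6 CPM in control cells without a leading hormone (5.97, 4.02 to 9.14), or 3.22 without letter A and 13.9 without letter B. *psmc2* had ratios above 1 in all 4 kinds (1.06, 1.05, 3.21 and 1.96). Its intervals covered 1 in *ins*-led (0.887 to 1.27) and *sst1.1*-led cells (0.909 to 1.21).

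The non-ATPases, which bind ubiquitin and form the lid and scaffold of the cap, carried most of the difference in the cap in the hormone-led kinds. In *sst1.1*-led cells they summed to 2403 CPM in *gcgr-/-* and 1160 CPM in control (ratio 2.07, 1.95 to 2.20). All 13 measured genes had a ratio above 1 (median log2 ratio 1.1), where 2992 of 4971 genes did. Not all 13 stayed above 1 with hormone genes left out of the totals, where *psmd4a* stood at 0.998 and *psmd4b* at 0.917. In *ins*-led cells the non-ATPases summed to 1032 CPM in *gcgr-/-* and 1613 CPM in control (ratio 0.640), although 9 of 14 measured genes were above 1 (median log2 ratio 0.32). The sum and the median of single genes therefore differed in direction in *ins*-led cells. In *sst1.2*-led cells the ratio was 1.52, with 8 of 12 genes above 1. This value rested largely on *psmd6*, with 304 CPM in *gcgr-/-* and 8.24 CPM in control.

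*psmd14*, the deubiquitinase of the lid, accounted for most of the *ins*-led difference. It had 3.72, 93.3, 6.76 and 47.1 CPM in the *gcgr-/-* letters, against 696 and 459 CPM in the control letters (ratio 0.0608, 0.0470 to 0.0775), and was seen in 7.5% of *gcgr-/-* and 34.1% of control cells after thinning. Without letter D the ratio was 0.0331. In *sst1.2*-led cells it had 104, 74.6, 0 and 105 CPM in *gcgr-/-*, against 182 and 397 CPM in control (ratio 0.282). The other kinds gave *psmd14* no settled direction, with 557 CPM in *gcgr-/-* and 402 CPM in control *sst1.1*-led cells (ratio 1.38, but 0.797 without letter A and 2.46 without letter B) and a ratio of 1.40 in cells without a leading hormone, but 0.601 without letter E. *psmd1*, a scaffold subunit of the cap, was also lower in every *gcgr-/-* letter of *ins*-led cells, with 86.1 CPM in *gcgr-/-* and 241 CPM in control (ratio 0.357), and level in *sst1.1*-led cells (ratio 1.02).

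*psmd12*, a lid subunit, was higher in *gcgr-/-* cells of all 4 kinds, and is also one of the genes that the study picked on these samples. It had 981, 203, 370 and 251 CPM in the *gcgr-/-* letters of *sst1.1*-led cells, against 150 and 107 CPM in the control letters (ratio 3.64, 3.08 to 4.32, or 2.22 without letter C). In *ins*-led cells it had 315, 187, 167 and 175 CPM in *gcgr-/-*, against 138 and 236 CPM in control (ratio 1.20, 1.03 to 1.41), a difference that turned without letter A (0.910), without letter C (0.988) and as a mean over cells (0.936). The ratios were 2.20 in *sst1.2*-led cells and 2.80 in cells without a leading hormone (1.51 without letter D), with overlapping letters. In thinned cells *psmd12* was seen in 33.3% of *gcgr-/-* and 13.9% of control *sst1.1*-led cells and in 48.3% of *gcgr-/-* and 14.3% of control *sst1.2*-led cells.

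Other lid genes gave large ratios on few counts. *psmd8* had 279 counts in *gcgr-/-* and 1 in control *sst1.1*-led cells (ratio 238, interval 42.3 to 9424), and 75 and 0 counts in *sst1.2*-led cells (at least 9.07-fold higher, against 3 counts in the control sum). In cells without a leading hormone it had 2 counts in *gcgr-/-* and 69 in control (ratio 0.0401, 0.00476 to 0.150). Without letter B the *sst1.1*-led ratio was 49.7, without letter A the *sst1.2*-led bound was 3.62, and without letter C the ratio in cells without a leading hormone was 0.0828. *psmd8* was seen in at most 12 cells of any of these sets, and 42.3% of its *gcgr-/-* counts in *sst1.1*-led cells came from 1 cell. *psmd6* had 508, 165, 516 and 91.0 CPM in the *gcgr-/-* letters of *sst1.2*-led cells, against 0 and 20.6 CPM in the control letters (407 and 4 counts, ratio 36.9, or 14.7 without letter A). *psmd11a* had 190 counts in *gcgr-/-* and 4 in control *sst1.1*-led cells (ratio 40.5, 15.6 to 150.1), with 60.0% of the *gcgr-/-* counts in 1 cell and a ratio of 6.81 without letter E, and a ratio of 4.96 in *ins*-led cells, or 1.24 without letter E. In cells without a leading hormone *psmd11a* was lower, with 16 counts in *gcgr-/-* and 90 in control (ratio 0.246, 0.135 to 0.421). Its copy *psmd11b* stood at 2.38 in *ins*-led cells, or 12.2 without letter A and 1.53 without letter B.

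The remaining cap genes that stood at an extreme of a kind were *psmd7*, *psmd3* and *PSMD2 (1 of many)*. *psmd7*, the partner of *psmd14* in the lid, had 10 counts in *gcgr-/-* and 190 in control cells without a leading hormone (ratio 0.0727, or 0.0239 without letter F and 0.126 without letter A). *psmd3*, another lid gene, had 235 CPM in *gcgr-/-* and 49.8 CPM in control cells of that kind (ratio 4.72). *PSMD2 (1 of many)*, a scaffold gene, had 42.0 CPM in *gcgr-/-* and 15.4 CPM in control *ins*-led cells (ratio 2.73), but most counts of both samples came from 1 cell each and the mean over cells put it lower in *gcgr-/-* (0.874). The ubiquitin receptor genes *psmd4a* (ratios 0.736, 1.13, 1.93 and 2.09 in *ins*-led, *sst1.1*-led, *sst1.2*-led and cells without a leading hormone, in that order) and *psmd4b* (1.26, 1.04, 6.69 and 0.483) took no common direction, and their values rested on single letters. Without letter A, *psmd4a* was 1.07 in *ins*-led and 0.772 in *sst1.2*-led cells and 1.09 in cells without a leading hormone, and without letter B it was 5.81 and 5.39 in the last pair of kinds. *psmd4b* was 0.525 without letter A and 56.7 without letter B in *ins*-led cells, 0.488 without letter E in *sst1.1*-led cells, 1.12 without letter C in *sst1.2*-led cells, and 3.31 without letter A in cells without a leading hormone.

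Assembly chaperones, which build the rings and leave the finished particle, summed to a lower level in *gcgr-/-* *sst1.1*-led cells (242 CPM, against 441 CPM in control, ratio 0.550) and to similar levels elsewhere (ratios 0.939, 0.870 and 1.07). The *sst1.1*-led value rested on *psmd9*, with 6 counts in *gcgr-/-* and 250 in control, 98.8% of the control counts in 1 cell (ratio 0.0205, or 0.635 without letter A). *psmg1*, an alpha ring chaperone, was lower in *gcgr-/-* in all 4 kinds with every letter included. It had 27.3, 10.1, 0 and 0 CPM in the *gcgr-/-* letters of cells without a leading hormone, against 263 and 163 CPM in the control letters (ratio 0.0403, 0.0146 to 0.0891), and 1 count in *gcgr-/-* against 47 in control *sst1.2*-led cells (ratio 0.00772, up to 0.0452). In *sst1.1*-led cells its ratio was 0.218, but 7.31 without control letter A, and in *ins*-led cells 0.546, but 1.18 without that letter. Its partner *psmg2* had ratios of 1.37, 0.959, 0.686 and 7.32, of which the third was 6.32 without letter B and the last 0.455 without letter F. *psmg3* was higher in *gcgr-/-* in the hormone-led kinds, at 4.45 in *ins*-led, 6.47 in *sst1.1*-led and at least 13.2-fold in *sst1.2*-led cells (109 and 0 counts), and at 0.311 in cells without a leading hormone. Without single letters these 4 values reached 2.63 (B), 2.33 (D), 5.26 (A) and 0.622 (B).

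Genes of alternative proteasome forms were close to absent. The immunoproteasome-type beta genes, which replace catalytic subunits in immune cells of mammals, were limited to *psmb10* (20 counts in 4 *gcgr-/-* cells and 8 counts in 1 control cell) and *psmb12* (14 counts in 1 *gcgr-/-* cell and 70 counts in 3 control cells). Of the activators that can replace the 19S cap, *psme1* had 157 counts in 6 *gcgr-/-* cells and 91 counts in 3 control cells, *psme2* 2 and 23 counts, *psme3* 33 counts in 16 cells and 9 counts in 6 cells, *psme4a* 34 and 6 counts and *psme4b* 27 and 4 counts. The inhibitor gene *psmf1* had 172 counts in 11 *gcgr-/-* cells and 41 counts in 2 control cells. *psmc3ip*, a recombination factor that matches the name rule but is no subunit, had 2 counts in *gcgr-/-* and 74 in control, 72 of these in 1 cell without a leading hormone. The sorted cells held hardly any immune transcript, with immune, blood and endothelial markers between 0 and 10.7 CPM in the compared and glucagon-led kinds.

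Few members kept 1 direction in all 4 kinds. Of 36 members measured in each, *psmb7*, *psmc2* and *psmd12* had ratios above 1 in all 4, beside 17.7% of 2175 genes, and *UBB* and *psmg1* below 1, beside 7.63%. By the share of thinned cells, 6 of 39 members were seen more often in *gcgr-/-* in all 4 kinds (*PSMD2 (1 of many)*, *psma1*, *psmb7*, *psmd11b*, *psmd12* and *psmd3*; background 14.8%) and 4 less often (*UBB*, *psma2*, *psmd1* and *psmg1*; background 7.84%). *UBB*, *psmb7*, *psmd12* and *psmg1* thus had 1 direction in both measures with every letter included. The counts were near or below the background for higher members and near it for lower ones.

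**Figure D5:**
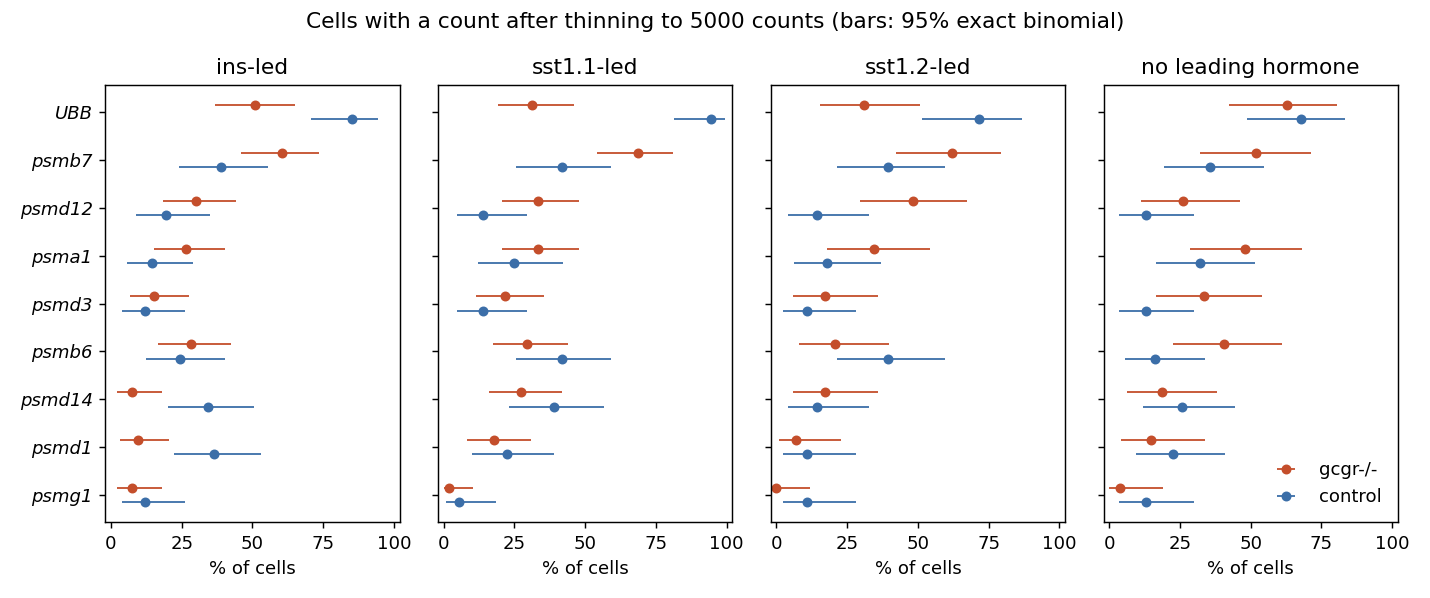
Share of cells with a count after thinning to 5000 counts, in percent, for 9 members by leading hormone, with exact binomial 95% intervals that cover counting error only (orange *gcgr-/-* above, blue control below). *UBB* was seen in 31.4% of *gcgr-/-* and 94.4% of control *sst1.1*-led cells, while *psmb7* and *psmd12* lie higher in *gcgr-/-* in all 4 kinds and *psmg1* lower.

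The number of different proteasome genes seen in a thinned cell was a further measure that no single gene decided. Its median was 7 in *gcgr-/-* and 7 in control *ins*-led cells, 8 and 7 in *sst1.1*-led cells, and 7 and 5 in cells without a leading hormone. The widest distance was in *sst1.2*-led cells, with medians of 8, 8, 6.5 and 8 in the *gcgr-/-* letters and 5 and 4 in the control letters. In the same cells the median number of all genes seen after thinning was 709 in *gcgr-/-* and 558 in control, so fewer genes of any sort were seen in the control cells. The part of this in the subunit number was not tested. Glucagon-led *gcgr-/-* cells had a median of 6 proteasome genes.

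Member by member, glucagon-led cells were set against the other kinds inside *gcgr-/-*, asking for the same direction in all 4 letters. Over *ins*-led cells *psma2* and *psmd14* were higher and *psma6b* and *psmc1a* lower, of 43 measured members (background 9.57% and 4.31%). Over *sst1.1*-led cells *UBB*, *psma6a* and *psmd9* were higher and *psmb7*, *psmc1a* and *psmd6* lower (8.64% and 5.76%). Over *sst1.2*-led cells 7 of 42 were higher (*PSMD2 (1 of many)*, *UBB*, *psma6a*, *psmd1*, *psmd14*, *psmd2* and *psmf1*; 12.8%) and 4 lower (*psma3*, *psma4*, *psma6b* and *psmb2*; 3.5%). Over cells without a leading hormone *psmd7* and *psmf1* were higher and *psma3*, *psmb2* and *psmb3* lower, of 45 (11.7% and 1.92%). Beside these backgrounds, higher members made up 16.7% and lower ones 9.52% over *sst1.2*-led cells, and lower ones 6.67% over cells without a leading hormone, while no member took the same direction against all 4 kinds.

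Of the pathway genes outside the name rule, *sqstm1*, an autophagy receptor for ubiquitin-tagged cargo, was higher in *gcgr-/-* in all 4 kinds, and the study also picked it on these samples. It had 2253 CPM in *gcgr-/-* and 378 CPM in control *ins*-led cells (ratio 5.96, 5.45 to 6.53), 1193 and 72.5 CPM in *sst1.1*-led cells (16.5), 1607 and 105 CPM in *sst1.2*-led cells (15.3), and 1362 and 172 CPM in cells without a leading hormone (7.91), with letters apart in all 4. Without letter A the *sst1.1*-led ratio was 8.78 and that of cells without a leading hormone 5.08, and without letter B they were 34.3 and 12.6. *UBB* and *sqstm1* thus stood in opposite directions in the hormone-led kinds. *adrm1*, a ubiquitin receptor of the 19S cap, had ratios of 1.13, 5.45, 4.38 and 2.45 in the same order (3.11 without letter A and 9.87 without letter B in *sst1.1*-led cells, and 4.54 without letter A in the last kind). *pomp*, the maturation factor of the core, had ratios of 0.609, 0.790, 0.469 and 0.449, with the 3 hormone-led values at 1.22, 1.57 and 1.06 without control letter B. The transcription factor genes *nfe2l1a* and *nfe2l1b*, whose mammalian counterpart drives proteasome genes when proteasome activity is low, had under 30 counts in each kind.

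The enzymes that activate and conjugate ubiquitin had more members past 2-fold higher than lower in *gcgr-/-* in each kind. The lists of deubiquitinases and of ubiquitin shuttles and receptors did so too, as did all measured genes. Of the measured enzymes, 6 of 11 were higher and 1 lower in *ins*-led cells, and 5 and 0 of 11 in *sst1.1*-led cells. They were 4 and 0 of 8 in *sst1.2*-led cells, and 6 and 2 of 12 in cells without a leading hormone. Their median log2 ratio was 1.05, 0.25, 0.40 and 0.995 in these kinds, beside 0.04, 0.50, 0.32 and 0.36 for all genes. The median of the shuttles and receptors was -0.64 in *ins*-led cells. The list of p97 and its cofactors did not lean higher in each kind. Of its measured genes, 1 of 7 was higher and 2 lower in *ins*-led cells, and 3 and 2 of 7 in *sst1.1*-led cells. They were 1 and 4 of 6 in *sst1.2*-led cells, and 1 and 1 of 7 in cells without a leading hormone. The heat shock genes took no common direction, with 5 of 17 measured past 2-fold higher and 6 lower in *gcgr-/-* *ins*-led cells, 9 and 6 of 17 in *sst1.1*-led cells, 5 and 7 of 17 in *sst1.2*-led cells, and 8 and 1 of 15 in cells without a leading hormone. Beside these counts, 33.3% of all measured genes were past 2-fold higher and 30.3% lower in *ins*-led cells. The shares were 40.7% and 24.7% in *sst1.1*-led cells, 39.4% and 28.5% in *sst1.2*-led cells, and 40.5% and 29.7% in cells without a leading hormone. The lists were not tested.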

How the data were processed

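Single-cell 3' libraries of a modified Smart-seq2 protocol were sequenced for 1 *gcgr-/-* and 1 control sample. The authors deposited raw counts per gene and cell; reads had been trimmed with Trim Galore, aligned to GRCz11 with STAR, and counted on coding sequence with featureCounts (versions not given in the sources used here). The primers carried molecular identifiers, but whether counts were collapsed on them is not given in the sources used here. Reads may thus not be independent molecules, in which case the intervals are too narrow. The unfiltered tables were used, and the filtered ones only to learn which 285 cells the authors kept. The tables were joined by position, since 17 gene names were spelled differently.

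Cells needed at least 500 genes and at most 10% mitochondrial counts. The 24 libraries of 24 cells had median counts per cell between 10812 and 33163. They share 48 cell barcodes, each used in 12 libraries, and no doublet caller was run because cells were sorted into wells. Counts were summed by genotype and leading hormone and divided by summed totals (CPM). Ratios have exact conditional 95% intervals, shares exact Clopper-Pearson intervals, and all cover counting error only. Letters with at least 3 cells were used. Fold limits against 0 counts use 3 counts per summed sample. Python 3.11.15, numpy 2.4.6, pandas 2.3.3, scipy 1.17.1 and matplotlib 3.10.9 were used, and the scripts were tested on simulated data.

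The members and gene lists were chosen with earlier results of these data known. Genes are named where they are *UBB*, catalytic, immunoproteasome-type, *psmd4*, *psmd12*, *psmd14*, *psme*, *psmf* or *psmg* genes, or among the 3 highest or lowest ratios of a kind with at least 100 counts. The pathway genes *ubb*, *ubc*, *sqstm1*, *nfe2l1*, *pomp* and *adrm1* belong to the same rule, while *rps27a*, *sem1*, *hsp70.1*, *hsp70.2*, *hsp70.3*, *dnajb1b* and *hspa8* are named outside it. *psma3*, *psmc2*, *psmc5*, *psmd1*, *psmc3ip* and others that stood apart between letters were named after their values were seen. Alternatives were the mean over cells, thinning to 5000 counts, other totals, stricter cell limits, the cells the authors kept, other count and fold limits, and leaving out each letter.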

Additional observations from a re-analysis of the deposited data

Results flagged for a closer look

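For 5 items the ratio of *gcgr-/-* to control pointed in opposite directions in 2 kinds of cells, with every *gcgr-/-* letter on 1 side of both control letters in each, and the difference between the kinds was not tested. The 19S cap stood at 1.62 in *sst1.1*-led and 1.37 in *sst1.2*-led cells, against 0.636 in *ins*-led cells. Its non-ATPase genes stood at 2.07 in *sst1.1*-led and 1.52 in *sst1.2*-led cells, against 0.640 in *ins*-led cells. The *sst1.2*-led non-ATPase value rested largely on *psmd6*, with 407 counts in *gcgr-/-* and 4 in control. Neither item includes *sem1*, at 65.8 CPM in *gcgr-/-* and 581 CPM in control *sst1.2*-led cells, or *adrm1*, at 288 and 65.9 CPM. The *sst1.2*-led values of both items therefore depend on the name rule. The *ins*-led non-ATPase value rested largely on *psmd14*, while 9 of the 14 measured genes were above 1. The *ins*-led cap value also rested on *psmc5*, with 63.0% of its control counts in 1 cell. The items overlap, since the cap holds its non-ATPases with *psmd8*, and the sum of 50 genes holds every other item. How many of all genes turned in this way was not counted. The 20S beta ring stood at 1.78 in *sst1.1*-led cells and 1.90 in cells without a leading hormone, against 0.691 in *sst1.2*-led cells. Its *sst1.1*-led value rested largely on *psmb7*, and the median log2 ratio of its 6 measured genes was 0.16 there. The sum of 50 proteasome genes stood at 1.49 in cells without a leading hormone, against 0.810 in *ins*-led cells. *psmd8* stood at 238 in *sst1.1*-led and at least 9.07 in *sst1.2*-led cells, against 0.0401 in cells without a leading hormone, on 1, 0 and 69 control counts.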

How the results depend on the processing

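No paired analysis was possible because each genotype is 1 sample and the labels give no replicate numbers. *UBB* stayed below 1 in the 3 hormone-led kinds in each alternative run, and the proteasome sum kept its side of 1 in all 4 kinds. The cells the authors kept gave no value for *ins*-led cells, where 1 *gcgr-/-* and 0 control cells remained. Alternatives chosen after seeing the data were leaving out the cell with the most counts of each gene, and totals without hormone genes when kinds were compared. The cause of each shift was not tested.

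The mean over cells gave *UBB* ratios of 0.199 (*ins*-led), 0.116 (*sst1.1*-led), 0.166 (*sst1.2*-led) and 0.695 (no leading hormone), and proteasome ratios of 1.57 (*sst1.1*-led), 1.22 (*sst1.2*-led) and 1.35 (no leading hormone). Thinning gave *UBB* 0.217, 0.137, 0.146 and 0.710 and the proteasome 0.843, 1.58, 1.25 and 1.32 in the order of kinds used above. Totals without hormone genes gave *UBB* 0.0773 in *sst1.1*-led and 0.123 in *sst1.2*-led cells, and the proteasome 0.852, 1.26 and 1.28 in the hormone-led kinds. Totals that also left out mitochondrial and ribosomal protein genes gave *UBB* 0.0758 (*sst1.1*-led), 0.133 (*sst1.2*-led) and 0.760 (no leading hormone), and the proteasome 0.856, 1.23, 1.38 and 1.25. The kept cells gave *UBB* 0.107 in *sst1.1*-led and 0.198 in *sst1.2*-led cells, and the proteasome 1.48, 1.17 and 1.37 without *ins*-led cells. A limit of 750 genes gave *UBB* 1.05 in cells without a leading hormone, and the proteasome 0.779 (*ins*-led), 1.33 (*sst1.1*-led) and 1.42 (no leading hormone). A hormone limit of 5% gave *UBB* 0.0631 in *sst1.2*-led cells and 0.641 in cells below it, and the proteasome 0.863 (*ins*-led), 1.31 (*sst1.1*-led) and 1.1 (no leading hormone). Without the top cell of each gene, *UBB* was 0.136 in *ins*-led cells and 1.05 in cells without a leading hormone, and the proteasome 0.941 (*ins*-led), 1.60 (*sst1.1*-led) and 1.52 (*sst1.2*-led).

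Leaving out each letter in turn gave *UBB* between 0.103 and 0.216 in *ins*-led, 0.0728 and 0.101 in *sst1.1*-led, 0.0943 and 0.126 in *sst1.2*-led cells and 0.854 and 0.981 in cells without a leading hormone. The proteasome sum ran between 0.773 and 0.859, 1.27 and 1.53, 1.07 and 1.12, and 1.30 and 1.60. The number of members past 2-fold ran between 11 and 23 (highest without letter B), 17 and 20, 16 and 24, and 21 and 28. At 1.5-fold it was 24 in *ins*-led cells, after thinning 10 in *sst1.1*-led, 8 in *sst1.2*-led cells and 14 in cells without a leading hormone, and at 100 counts or more 15 in the last kind, where thinning and the higher limit measure fewer genes. Without hormone genes in the totals, the proteasome sum of glucagon-led *gcgr-/-* cells was 0.695 relative to *sst1.1*-led, 0.913 to *sst1.2*-led cells and 0.786 to cells without a leading hormone, and *UBB* 0.869 relative to the last.

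Of 82 ratios recomputed (the proteasome sum, *UBB* and the named genes by kind), 27 lay on the other side of 1 in at least 1 setting and 50 moved by over 1.5 times without a single letter. Of these 27, 19 were within 2-fold as reported, *UBB* in cells without a leading hormone among them. The 8 past 2-fold were *PSMD2 (1 of many)* in *ins*-led cells (0.874 as a mean over cells, 0.844 thinned), *psmg1* in *sst1.1*-led cells (7.31 without letter A), *psmd4b* in *sst1.2*-led cells (0.543 in kept cells), *psmb6* (1.04) and *pomp* (1.06) in *sst1.2*-led cells without letter B, and, in cells without a leading hormone, *psmd4b* (1.34 at 750 genes, 3.31 without letter A), *psmg3* (1.07 at the 5% limit) and *psmg2* (0.455 without letter F, 0.461 without the top cell). Without other single letters, these ratios reached 0.0661 (*psmg1*), 0.266 (*psmb6*), 0.255 (*pomp*), 0.0221 (*psmd4b*) and 22.0 (*psmg2*). Depth limits most subunits: the median member was seen in 17.8% of cells.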
